A study of Mus musculus with 24 samples.

Results

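The comparison described here sets skin of mice that received dihydrotestosterone (DHT) and a topical herbal extract against skin of mice that received DHT and solvent, both taken at day 15. It rests on 8 of the 24 libraries of the series, 4 from each group, and on 13039 of the 18892 genes in the table, namely those with at least 1 FPKM (fragments per kilobase of transcript, scaled to the depth of the library) in at least 4 of the 24 libraries. The treatment group was injected daily with DHT and had an extract of Hanlianxiang (HLX), a traditional Chinese medicine formula, applied to the skin. The model group had the same DHT injections with solvent alone on the skin, and the control group of the same day had saline injections with solvent. Each library is poly(A) RNA from the skin of 1 mouse, and mice are called by the replicate number in their sample title. DHT was given to treatment and model mice alike, so the contrast is between extract and solvent on DHT-injected skin. The strain, sex and age of the mice and the skin site and extract dose are not given in the sources used here.

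DHT is the androgen made from testosterone by 5-alpha reductases, and it acts on the dermal papilla, the mesenchymal cluster that instructs the hair follicle. A growing (anagen) follicle builds the hair shaft from hard keratins cross-linked to keratin-associated proteins, surrounded by an inner root sheath with keratins of its own. Transcription factors such as Foxn1, Msx2, Dlx3 and Hoxc13 run this program in the hair matrix, and Fgf5 is the growth factor that ends anagen. Skin also carries macrophages and other immune cells, in which type I and type II interferons switch on a shared set of antiviral genes through STAT proteins and interferon regulatory factors.

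The 8 libraries held the defining transcripts of skin. Across them Krt5 ranged from 335.7 to 638.5 FPKM, Krt10 from 149.3 to 490.9, Col1a1 from 584.9 to 3608 and Dcn from 539.1 to 1747. Whole reads recovered from the steps between FPKM values summed to between 36064200 (treatment mouse 3) and 40298800 (model mouse 3) per library. The relative depth, 0.957 to 1.06 times the mean of the series, is firmer than these totals. Libraries of both groups differed more among themselves than those of the 4 other groups of the series: the lowest correlation across genes between 2 libraries of a group was 0.9283 in treatment and 0.9428 in model skin of day 15, against 0.9794 or more elsewhere, and the median SD of a gene on the log2 scale was 0.194 and 0.168, against 0.0993 to 0.122.

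Several of these libraries stood apart. Treatment mouse 3 had the lowest macrophage, neutrophil and dermal matrix levels of the 8, with a median of -1.67 over 16 macrophage genes (log2 difference from the model mean), -2.24 over 8 neutrophil genes and -1.02 over 30 dermal matrix genes. Model mouse 3 had the highest neutrophil (2.42) and cytokine (1.88) medians. Model mouse 2 was highest in adipocyte (0.94) and muscle (0.94) genes and lowest in the hair shaft, inner root sheath and hair matrix lists. The summed level of 4 Y-linked genes (Ddx3y, Eif2s3y, Kdm5d and Uty) was 22.3, 22.3, 48.2 and 33.4 FPKM in treatment mice 1 to 4, against 39.2 to 46.8 in model and 43.3 to 48.4 in control mice, so that treatment mice 1, 2 and 4 lay below every model and control library, mice 1 and 2 by the widest margin. The labels give no sex, and whether the libraries of treatment mice 1 and 2 were mixed or mislabelled cannot be told from the table. Summed levels of their 4 X-linked homologs, 177 to 271 in treatment and 182 to 223 in model skin, overlapped. Counts are therefore also given without treatment mice 1 and 2 together, and without mouse 3 of both groups, both chosen after these values were seen. What moves with these libraries was not tested as a source of the differences below.

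**Figure D1:**
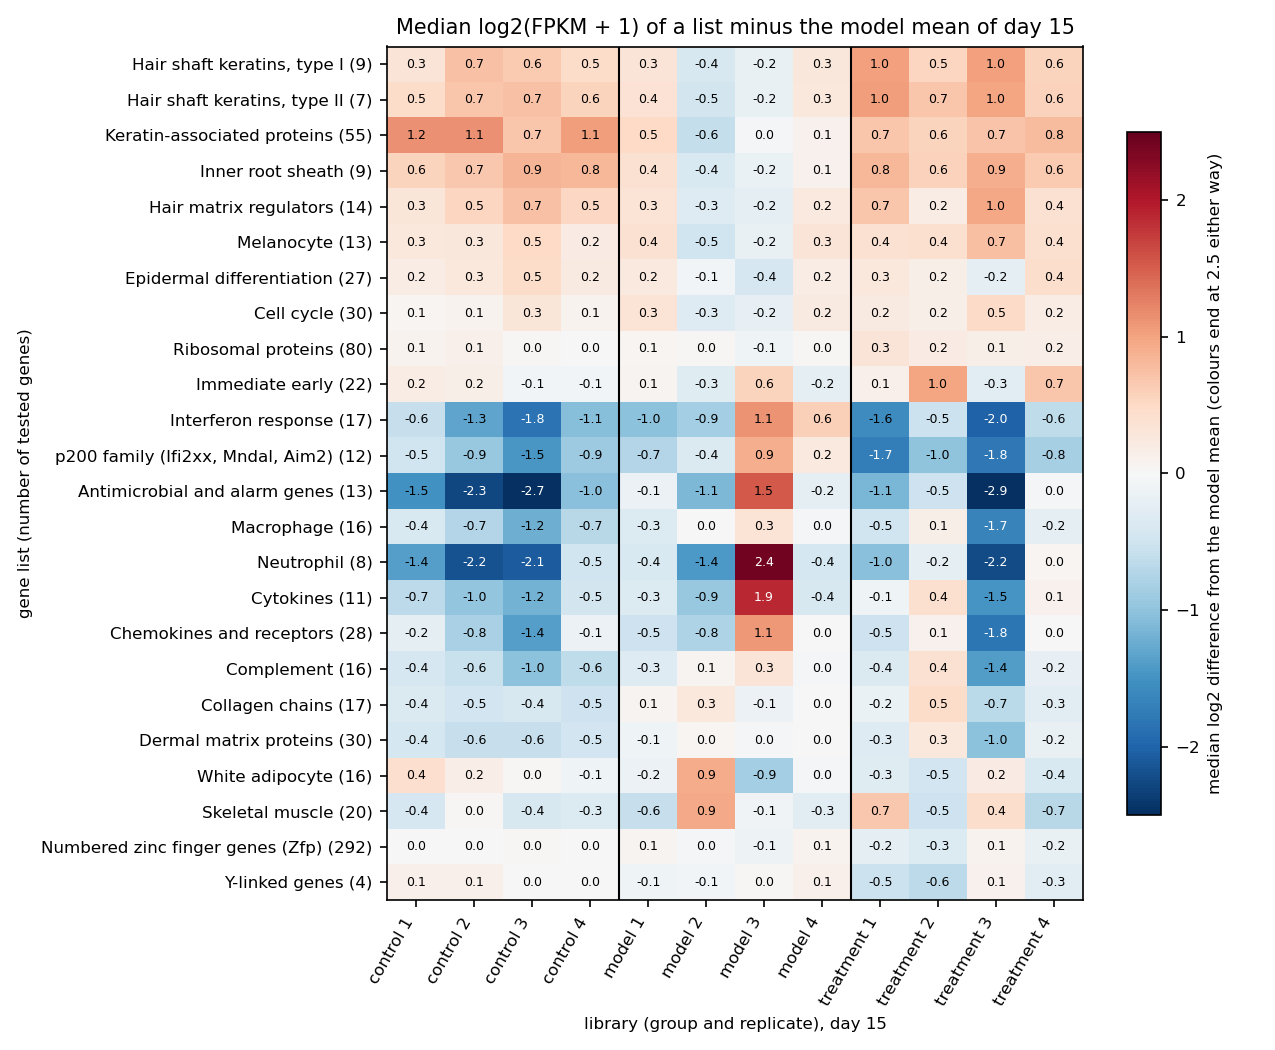
Median log2(FPKM + 1) of each gene list in each of the 12 libraries of day 15, after subtraction of the model mean of every gene; numbers in brackets are tested genes, and red and blue are above and below the model mean. The lists of hair shaft keratins, keratin-associated proteins, inner root sheath and hair matrix regulators are above the model mean in all 4 treatment libraries, whereas treatment mouse 3 has the lowest macrophage (-1.67) and dermal matrix (-1.02) values of the 12 and model mouse 3 the highest neutrophil value (2.42).

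Genes were compared on the log2(FPKM + 1) scale with limma, and a gene was called at an adjusted p (Benjamini-Hochberg over all genes tested) under 0.05. Differences are treatment minus model, ± the standard error, with 4 mice a group, and the adjusted p-values given are those of limma. Standard errors and p-values rest on the spread within groups over all 24 libraries, not on the 8 compared libraries alone. For treatment and model skin of day 15, which varied more than the other groups, both can be too small. With the spread shared over all 24 libraries, 1348 genes (10.3% of those tested) were higher and 1215 (9.32%) lower in treatment than in model skin at an adjusted p under 0.05, together 19.7%. Most differences were small, since 9 of the higher and 91 of the lower genes differed by over 2-fold on the log2(FPKM + 1) scale. Values of the 2 groups did not overlap for 1041 genes in the higher direction (7.98%) and 625 in the lower (4.79%), and 880 and 546 genes were both called and free of overlap. With weights per group, which let the wide day-15 groups count for less, 99 genes were higher and 109 lower. When the 8 libraries alone were fitted, limma called 0 genes (smallest adjusted p 0.134, 2503 genes or 19.2% at an unadjusted p under 0.05), and voom on recovered reads also called 0. Without treatment mice 1 and 2, 771 of the 13039 genes were higher and 558 lower, and without mouse 3 of both groups 831 and 1800. List counts given below for these omissions are to be read beside these counts of all genes. Among single libraries, omission of treatment mouse 1 left the fewest calls in both directions (686 and 535), model mouse 2 left 787 higher genes and model mouse 3 874. A common total per library gave 677 higher and 1658 lower genes and quantile normalization 1739 and 933, so the share of calls in the higher direction went from 52.6% to 29.0% or 65.1% with the scaling. Calls below are those with all 24 libraries. Of 184 named called genes 24 also passed with group weights, and only part of these are marked as such. A gene without the mark may therefore have passed too.

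**Figure D2:**
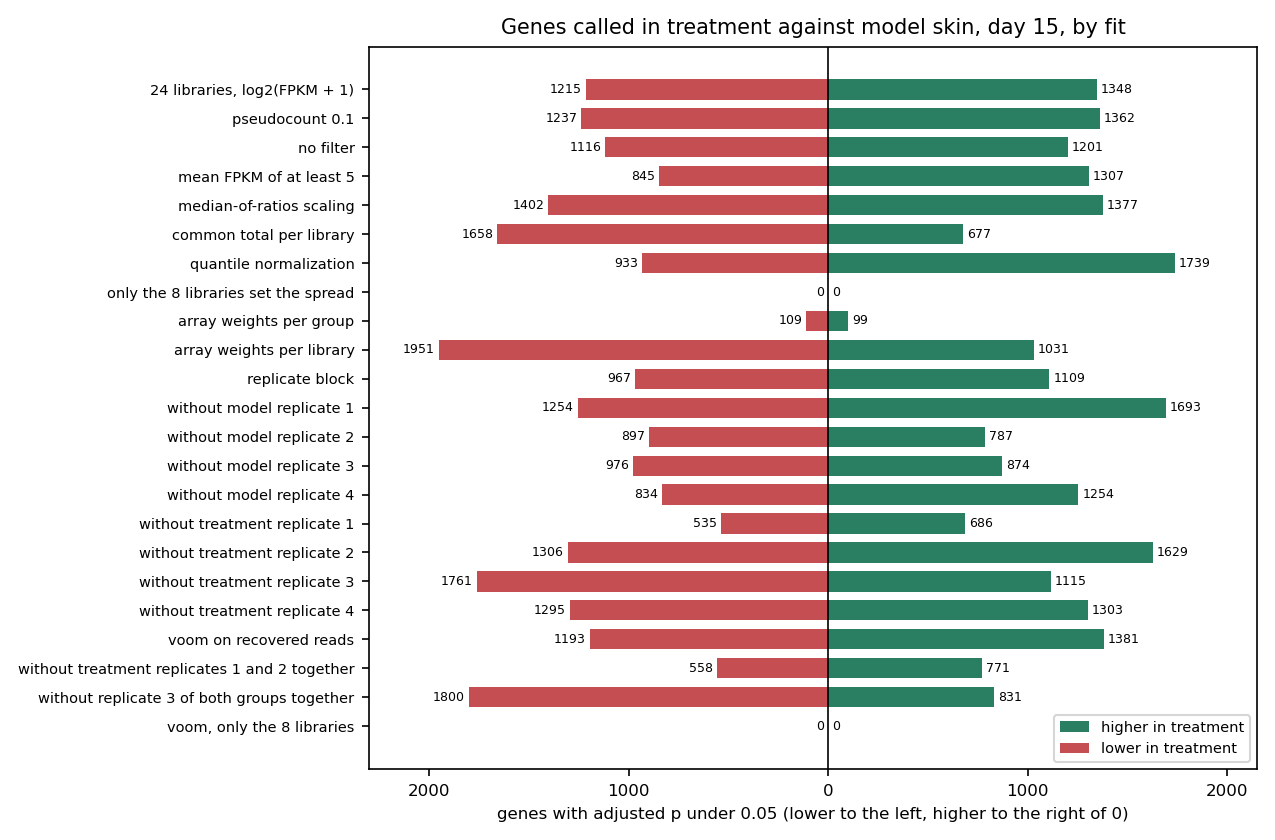
Number of genes called higher (right) and lower (left) in treatment than in model skin of day 15 at an adjusted p under 0.05, for each fit. Other fits give between 535 and 1951 genes a direction, whereas the fit with weights per group gives 99 and 109, and both fits of the 8 libraries alone give 0.

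Genes of the hair fiber were higher in treatment skin. Of 9 type I hair shaft keratins 6 rose and none fell, of 7 type II 5 rose and none fell, and of 55 keratin-associated proteins 22 rose and none fell, where 10.3% of all genes rose. The medians of the 3 lists were 0.78, 0.82 and 0.64 on the log2 scale, beside -0.02 over all genes tested. Of the 15 largest rises (among called genes free of overlap that have a proper symbol and whose higher group averaged 2 FPKM or more) 10 were keratins or keratin-associated proteins. No gene of these 3 lists was called with group weights.

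Krt85, a type II keratin of the hair cortex, measured 663, 509.9, 708 and 476 FPKM in treatment mice 1 to 4 and 378, 253, 276 and 379 in model mice 1 to 4. The groups did not overlap, mice 1 and 3 being the highest of the treatment group, and the log2 difference was 0.88 ± 0.18 (adjusted p = 0.0038). Krt35, its type I counterpart, was at 410.3, 294, 441 and 270.1 against 230.2, 170.2, 185 and 227 FPKM, a difference of 0.78 ± 0.17 (adjusted p = 0.0051). Krt34 was at 799, 653, 742 and 652 against 509, 284, 360.1 and 373, a difference of 0.92 ± 0.24 (adjusted p = 0.013). Model mouse 2 had the lowest value of all 3 genes. The other called shaft keratins, Krt31, Krt33a, Krt33b, Krt32, Krt81, Krt83, Krt86 and Krt87, rose by 0.58 (Krt32) to 0.88 (Krt33b). In control skin Krt85 was at 369, 459, 523 and 412 and Krt34 at 661, 750, 638 and 725 FPKM. Krt31 lost the call without treatment mouse 1 or model mouse 2 (adjusted p = 0.058). Krt33a, Krt32 and Krt83 were not called without treatment mouse 1 or 3 or model mouse 2 or 3 (adjusted p from 0.057 to 0.14). Krt33b, Krt86 and Krt87 missed the threshold without treatment mouse 1 or model mouse 2 or 3 (adjusted p from 0.052 to 0.098). Krt81 lost the call without treatment mouse 1 or 3 or model mouse 2, 3 or 4 (adjusted p from 0.052 to 0.13).

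Keratin-associated proteins, which form the matrix between the keratin filaments of the shaft, rose with the shaft keratins. Krtap3-2 was at 350, 303, 289 and 341 FPKM in treatment and 217, 99.0, 154 and 151 in model mice, a difference of 1.09 ± 0.23 (adjusted p = 0.0041). Treatment mouse 3 had the lowest of the 4 treatment values and still exceeded every model library. Krtap7-1, one of the most abundant, was at 4098, 2867, 3788 and 2903 against 2216, 1259, 1731 and 1789.5, a difference of 0.97 ± 0.26 (adjusted p = 0.015). Among the other large rises were Krtap4-7 (1.05 ± 0.28), Krtap9-1 (1.02 ± 0.28), Krtap2-4 (1.0 ± 0.26), Krtap4-1 (0.97 ± 0.29), Krtap3-1 (0.95 ± 0.24), Krtap4-9 (0.94 ± 0.28) and Krtap3-3 (0.89 ± 0.23). Over the 55 genes, the treatment group stood -0.29 from control and the model group -0.96 from control (medians of log2 differences, which share the control libraries). Near-identical members of this family can share reads, so single members are less certain than the family. Without treatment mice 1 and 2 together, 1 gene of each of the 3 fiber lists was called, where 771 of 13039 genes were higher. For the 55 keratin-associated proteins that was a smaller share than over all genes. Without mouse 3 of both groups 2 type I keratins, 1 type II keratin and 11 keratin-associated proteins were called. In that fit 831 of 13039 genes were higher. Krtap7-1 lost the call without treatment mouse 1 or model mouse 2 (adjusted p from 0.055 to 0.058). Krtap4-7, Krtap9-1, Krtap2-4 and Krtap3-3 were not called without model mouse 2 (adjusted p from 0.052 to 0.067). Krtap4-1 missed the threshold without treatment mouse 1 or 4 or model mouse 2 (adjusted p from 0.052 to 0.088). Krtap4-9 lost the call without treatment mouse 1 or model mouse 2 or 4 (adjusted p from 0.065 to 0.095).

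**Figure D3:**
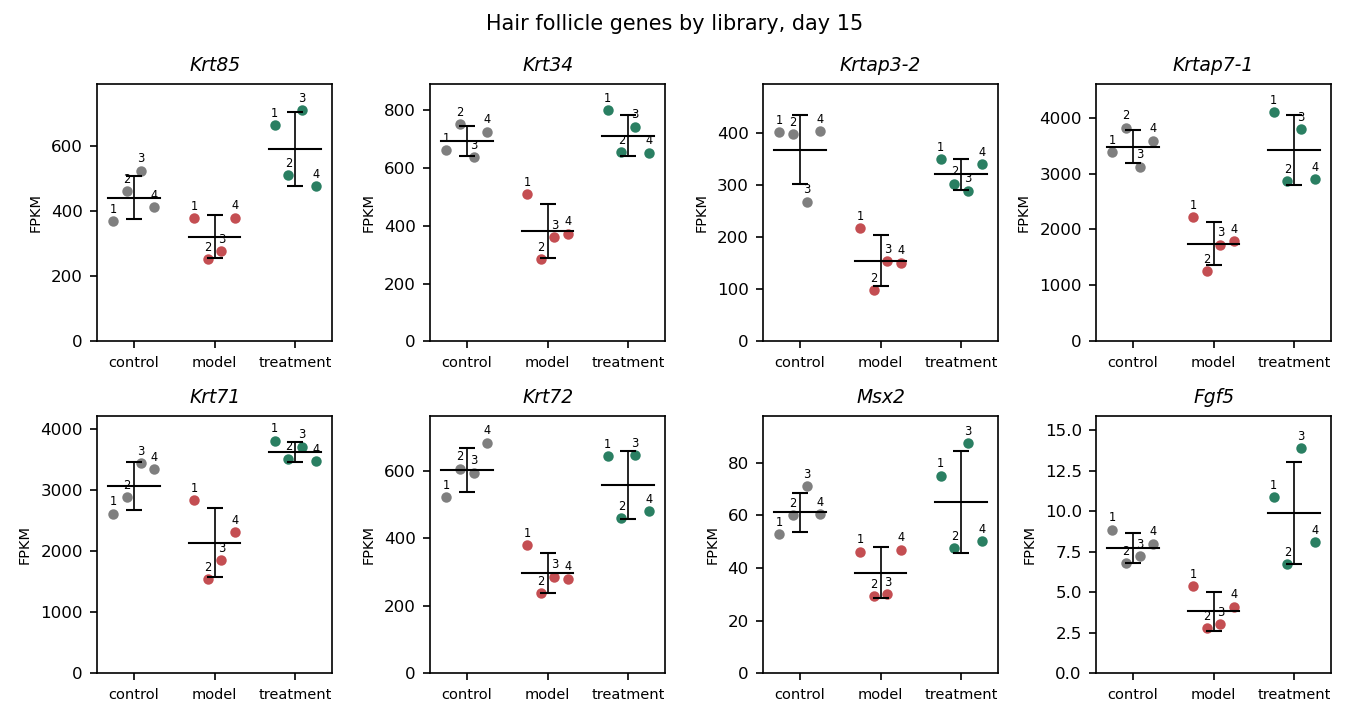
FPKM (linear axes from 0) of 8 hair follicle genes in control, model and treatment libraries of day 15; points are single mice labelled with their number, and black lines are the mean ± SD of 4 mice. All 4 treatment values lie above all 4 model values in each panel, and model mouse 2 is the lowest for every gene.

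The inner root sheath, the layer that moulds the growing shaft, also gained transcripts. Of its 9 tested genes 8 (88.9%, beside 10.3% of all genes) rose and none fell, 6 of them in every fit without 1 library, and 6 were called both without treatment mice 1 and 2 and without mouse 3 of both groups. Krt71, its main type II keratin, was at 3811, 3514, 3712 and 3472 FPKM in treatment and 2834, 1538, 1853 and 2311 in model mice (0.80 ± 0.18, adjusted p = 0.0051 on the log2 scale). The 4 treatment values lay within a narrow band above the highest model value. Krt72 was at 643, 460.1, 646 and 479.8 against 379, 238, 286 and 281 (0.91 ± 0.23, adjusted p = 0.011). Krt73 (0.74 ± 0.16), Krt28 (0.87 ± 0.19), Krt25 (0.74 ± 0.16), Krt27 (0.72 ± 0.19), the peptidylarginine deiminase Padi3 (0.69 ± 0.18) and trichohyalin, Tchh (0.63 ± 0.22), made up the rest. In the companion layer next to it Krt75 rose by 0.76 ± 0.18 (adjusted p = 0.007) and Krt17 by 0.44 ± 0.13. Padi3 lost the call without model mouse 2 (adjusted p = 0.053). Tchh was not called without treatment mouse 1, 3 or 4 or model mouse 2, 3 or 4 (adjusted p from 0.06 to 0.14). Krt17 missed the threshold without treatment mouse 1 or model mouse 2 or 3 (adjusted p from 0.064 to 0.081).

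Hair matrix transcription factors rose in 8 of 14 (57.1%, beside 10.3% of all genes), and none fell. Msx2, a homeobox factor of the matrix, was at 75.0, 47.6, 87.3 and 50.1 FPKM in treatment and 46.2, 29.4, 30.1 and 46.9 in model mice (0.74 ± 0.19, adjusted p = 0.011). Treatment mice 2 and 4 lay just above the highest model values, whereas mice 1 and 3 were well clear of them. Foxn1, whose loss causes nude mice, was at 54.4, 41.6, 57.5 and 39.1 against 36.3, 21.0, 25.7 and 31.6 (0.74 ± 0.20, adjusted p = 0.014). Dlx3 rose by 0.68 ± 0.16 (adjusted p = 0.0092), Dlx2 by 0.73 ± 0.19, Hoxc13 by 0.59 ± 0.19 and Ovol1 by 0.57 ± 0.17. Over the 14 genes treatment mouse 3 had the highest median (0.97 from the model mean) and mouse 2 the lowest of its group (0.18). Without mouse 3 of both groups none of the 14 was called by limma, and the 6 genes named here had adjusted p-values from 0.055 to 0.25. Foxn1 lost the call without treatment mouse 1 or model mouse 2 (adjusted p from 0.052 to 0.053). Hoxc13 and Ovol1 were not called without treatment mouse 1 or 3 or model mouse 2 or 3 (adjusted p from 0.063 to 0.12).

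Fgf5, which signals the end of anagen, headed the 15 largest rises. It was at 10.9, 6.73, 13.9 and 8.1 FPKM in treatment mice 1 to 4 and 5.4, 2.77, 3.05 and 4.13 in model mice 1 to 4, with control mice at 8.87, 6.81, 7.22 and 8.02. All treatment values exceeded all model values, with mouse 3 the highest. The log2 difference was 1.16 ± 0.20 (adjusted p = 0.0012), called in every fit without 1 library and with group weights (adjusted p = 0.029). Among the 15 largest rises were also Gprc5d, a receptor of the hair cortex (0.98 ± 0.23), Stra6, the cellular retinol importer (0.99 ± 0.25), and Tgm3, the transglutaminase that cross-links hair and cornified envelopes (0.96 ± 0.24). Gprc5d was at 494, 366, 495 and 354 against 271, 164, 209 and 221 FPKM, again lowest in model mouse 2.

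Pigment genes rose in part. Of 13 melanocyte genes 5 (38.5%, beside 10.3% of all genes) rose and none fell: Tyrp1, Pmel, Oca2, Dct and Trpm1. Pmel, the protein scaffold on which melanin is laid down, was at 26.0, 32.8, 33.6 and 27.2 FPKM in treatment and 23.9, 8.83, 14.0 and 20.8 in model mice (0.87 ± 0.22, adjusted p = 0.011). Tyrp1, a melanin synthesis enzyme, was at 52.2, 52.2, 63.2 and 52.3 against 43.1, 20.2, 30.8 and 40.8 (0.74 ± 0.17, adjusted p = 0.0055), with treatment mice 1, 2 and 4 nearly equal. Dct rose by 0.68 ± 0.19, Oca2 by 0.64 ± 0.18 and Trpm1 by 0.51 ± 0.17. Of the 13 genes 3 rose without treatment mice 1 and 2, and 2 without mouse 3 of both groups. In bulk skin a change in the number of cells of a type and a change in RNA per cell cannot be told apart. Oca2 and Dct lost the call without model mouse 2 or 3 (adjusted p from 0.0502 to 0.067). Trpm1 was not called without treatment mouse 1 or 3 or model mouse 2 or 3 (adjusted p from 0.07 to 0.16).

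Some genes of the pathways that pattern the follicle rose by small steps. Among 26 Wnt pathway genes 6 (23.1%, beside 10.3% of all genes) rose and 1 fell: the ligands Wnt4 (0.58 ± 0.14), Wnt11 (0.51 ± 0.15) and Wnt10a (0.38 ± 0.11), the receptor Fzd1 (0.44 ± 0.11), the nuclear factor Tcf7 (0.43 ± 0.12) and the feedback inhibitor Nkd1 (0.38 ± 0.13) rose, and Dkk2, a secreted modulator, fell (-0.55 ± 0.19). Lef1 (0.41 ± 0.17, adjusted p = 0.082), Wnt10b (0.13 ± 0.21, adjusted p = 0.67) and beta-catenin, Ctnnb1 (0.09 ± 0.09, adjusted p = 0.48), were not called. Of 8 Hedgehog genes 2 (25%), the receptor Ptch1 (0.36 ± 0.12) and the transducer Smo (0.29 ± 0.09), rose, and the ligand Shh was at 4.67, 4.18, 5.56 and 5.63 against 5.1, 2.88, 3.03 and 4.16 FPKM (0.34 ± 0.13, adjusted p = 0.062). In the BMP list of 13, Bambi (0.62 ± 0.17), Bmp7 (0.38 ± 0.12) and Bmp6 (0.35 ± 0.12) rose (23.1%) and Grem1 fell, and Bmp2 (0.39 ± 0.17, adjusted p = 0.11), Bmp4 (0.16 ± 0.14, adjusted p = 0.42) and Noggin, Nog (-0.23 ± 0.17, adjusted p = 0.36), were not called. At shares near those of all genes, 1 of 12 dermal papilla genes rose, the protease Corin (0.41 ± 0.13), and 1 of 11 bulge stem cell genes fell, Cd34 (-0.58 ± 0.20). Wnt11 lost the call without treatment mouse 3 or model mouse 2 (adjusted p from 0.073 to 0.098). Wnt10a, Bmp7 and Bmp6 were not called without treatment mouse 1 or 3 or model mouse 2 or 3 (adjusted p from 0.056 to 0.18). Tcf7 missed the threshold without model mouse 2 (adjusted p = 0.058). Nkd1 lost the call without treatment mouse 1 or 3 or model mouse 1, 2 or 3 (adjusted p from 0.056 to 0.17). Dkk2 was not called without treatment mouse 1, 2, 3 or 4 or model mouse 1, 2 or 4 (adjusted p from 0.052 to 0.14). Ptch1 missed the threshold without treatment mouse 3 or 4 or model mouse 2 or 3 (adjusted p from 0.08 to 0.15). Smo lost the call without treatment mouse 1, 3 or 4 or model mouse 2 or 3 (adjusted p from 0.054 to 0.095). Bambi was not called without treatment mouse 1 or model mouse 2 (adjusted p from 0.056 to 0.069). Corin missed the threshold without treatment mouse 3 or model mouse 2, 3 or 4 (adjusted p from 0.053 to 0.13). Cd34 lost the call without treatment mouse 3 or 4 or model mouse 2, 3 or 4 (adjusted p from 0.064 to 0.18). Lef1 was called without model mouse 1 or without treatment mouse 2 (difference from 0.51 to 0.53, adjusted p from 0.032 to 0.042). Shh was called with median-of-ratios scaling, with quantile normalization, without model mouse 1, without treatment mouse 2 or without treatment mice 1 and 2 (difference from 0.34 to 0.48, adjusted p from 0.01 to 0.0498). Bmp2 was called without treatment mouse 2 (difference 0.55, adjusted p = 0.021). Nog was called with weights per library (difference -0.53, adjusted p = 0.032).

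Igf1, a growth factor of the dermal papilla that prolongs anagen, was at 7.96, 8.86, 9.74 and 9.23 FPKM in treatment and 10.8, 26.9, 12.5 and 13.7 in model mice, a fall (-0.69 ± 0.18, adjusted p = 0.012) in which model mouse 2 was far above the rest. All treatment values lay below every model value. Tgfb2, a ligand that promotes follicle regression, was at 3.94, 3.98, 2.82 and 3.74 against 5.05, 7.43, 4.41 and 5.96 (-0.53 ± 0.12, adjusted p = 0.0065), and its co-receptor Tgfbr3 fell by 0.57 ± 0.19. Tgfb1 (0.03 ± 0.20, adjusted p = 0.93), Fgf7 (-0.57 ± 0.26, adjusted p = 0.12) and Vegfa (-0.50 ± 0.21, adjusted p = 0.1) were not called. Dkk1, an inhibitor of Wnt signalling, was under 1 FPKM in all 8 libraries and was not tested. Without mouse 3 of both groups none of the Wnt, Hedgehog or BMP genes named here as risen was called by limma (adjusted p from 0.052 to 0.29). Tgfbr3 lost the call without treatment mouse 1 or 3 or model mouse 2, 3 or 4 (adjusted p from 0.052 to 0.12). Tgfb1 was called without mouse 3 of both groups (difference 0.45, adjusted p = 0.033). Fgf7 was called without treatment mouse 4 (difference -0.79, adjusted p = 0.031). Vegfa was called without treatment mouse 2 (difference -0.73, adjusted p = 0.013).

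Many interferon-inducible genes were called lower in treatment skin, and they made up most of the largest falls. Of 17 interferon response genes 9 (52.9%, beside 9.32% of all genes) fell and none rose (median -1.14). Of the 17, 4 were lower without overlap, where 4.79% of all genes were. The list median from the model mean was -1.57, -0.53, -2.03 and -0.63 in treatment mice 1 to 4. In model mice 1 to 4 it was -1.03, -0.86, 1.12 and 0.59, so treatment mice 2 and 4 lay above model mice 1 and 2. Of the 15 largest falls, chosen like the rises, 11 belong to families known as interferon-inducible: Ifit1, Ifit2, Ifit3b, Cmpk2, Oas2, Samd9l, Gbp7, Trim12c and the p200 members Mndal, Ifi204 and Ifi205. The 4 others were Grem1, Ctla2a, Aspn and Casp4, itself known to be induced by interferon.

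Interferon acts on such genes through a short promoter element, the interferon-stimulated response element. Its core, 2 copies of GAAA with any 2 bases between them (2 copies of TTTC when read on the other strand), was searched on both strands. Windows before the gene start are printed for the 6 of the 15 largest falls that hold a match, and for Isg15, and capitals mark the match or, where matches overlap, their joint stretch. Sequences and coordinates are those of RefSeq promoters of build GRCm38.p6, written 5′ to 3′ on the strand of the gene.
Ifit1, chr19:34640765-34640833, plus strand: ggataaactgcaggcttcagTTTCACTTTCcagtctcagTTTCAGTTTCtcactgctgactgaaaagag
Ifit3b, chr19:34607749-34607832, plus strand: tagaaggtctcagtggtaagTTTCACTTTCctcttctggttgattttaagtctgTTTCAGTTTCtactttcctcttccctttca
Gbp7, chr3:142530263-142530312, plus strand: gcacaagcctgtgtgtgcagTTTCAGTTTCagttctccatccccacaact
Trim12c, chr7:104353350-104353398, minus strand: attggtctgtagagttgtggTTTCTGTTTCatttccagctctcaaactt
Mndal, chr1:173880194-173880243, minus strand: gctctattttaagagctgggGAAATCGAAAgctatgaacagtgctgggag
Ifi205, chr1:174031860-174031909, minus strand: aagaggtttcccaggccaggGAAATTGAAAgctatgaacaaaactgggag
Isg15, chr4:156200855-156200916, minus strand: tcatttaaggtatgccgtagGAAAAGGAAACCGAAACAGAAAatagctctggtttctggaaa
Of the 15 largest falls 13 had a promoter in the table, and 6 of these (46.2%) held a match in the 300 bases from 250 before to 50 after the start. All promoters in the table held it in 1131 of 32851 (3.44%), called lower genes in 70 of 978 (7.16%), called higher genes in 33 of 1081 (3.05%) and genes not called in 305 of 8356 (3.65%). In the interferon list 9 of 14 held it (64.3%). Ifit1 and Ifit3b held 2 matches and Isg15 held 3. A match describes letters in this window and shows no binding.

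Ifit1, whose product binds viral RNA lacking host cap marks, was at 2.57, 6.78, 2.3 and 6.89 FPKM in treatment mice 1 to 4 and 9.78, 10.4, 67.6 and 40.1 in model mice 1 to 4. Treatment mice 2 and 4 were above mice 1 and 3, and model mice 3 and 4 were far above model mice 1 and 2, yet the groups did not overlap. The log2 difference was -2.23 ± 0.50 (adjusted p = 0.006). Control mice were at 11.3, 4.97, 3.23 and 6.34, a span that reaches into both groups. Ifit2 was at 2.98, 7.19, 2.83 and 9.21 against 9.47, 10.2, 49.7 and 34.8 (-1.85 ± 0.41, adjusted p = 0.0057), with treatment mouse 4 just under model mouse 1.

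Oas2, an enzyme that makes 2-5A in response to double-stranded RNA, was at 1.42, 2.76, 0.96 and 2.4 against 4.08, 5.06, 11.5 and 7.12 FPKM (-1.42 ± 0.24, adjusted p = 0.0011), and it also passed with group weights (adjusted p = 0.029). Samd9l, an antiviral restriction factor, was at 3.03, 6.43, 5.01 and 7.84 against 10.7, 13.1, 38.2 and 23.3 (-1.66 ± 0.29, adjusted p = 0.0012; adjusted p = 0.029 with group weights). In each of these genes model mouse 3 was the highest of the 8 libraries. Rsad2 (-1.89 ± 0.60), Ifit3 (-1.70 ± 0.43), Isg15 (-1.61 ± 0.54), Ifit3b (-1.45 ± 0.31), Gbp7 (-1.49 ± 0.29), Cmpk2 (-1.44 ± 0.36), Ifi44 (-1.29 ± 0.29), Usp18 (-1.05 ± 0.36) and Xaf1 (-0.98 ± 0.33) fell as well. Isg15, the ubiquitin-like modifier, was at 8.78, 16.9, 5.86 and 21.2 against 17.4, 13.8, 128 and 64.3 FPKM, so its groups overlapped. Without model mouse 3 the Rsad2 difference was -1.25. Without mouse 3 of both groups 4 of the 17 list genes fell, and without treatment mice 1 and 2 also 4. Rsad2, Isg15 and Xaf1 lost the call without treatment mouse 1 or 3 or model mouse 3 or 4 (adjusted p from 0.085 to 0.15). Usp18 was not called without treatment mouse 1 or 3 or model mouse 2, 3 or 4 (adjusted p from 0.0504 to 0.16).

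Genes for nucleic acid sensors and inflammasome caspases fell as well. These families were picked after the values were seen, so their counts are descriptions. Of 12 tested p200 genes, which encode DNA sensors of the Ifi200 cluster, 11 (91.7%, beside 9.32% of all genes) fell and none rose. The median was -1.31, and 9 of the 11 were called in every fit without 1 library. Mndal was at 7.26, 15.5, 8.67 and 15.3 FPKM in treatment and 20.6, 27.5, 62.7 and 44.2 in model mice (-1.59 ± 0.28, adjusted p = 0.0014; adjusted p = 0.031 with group weights). Ifi205 was at 62.8, 94.8, 70.3 and 114 against 137, 195, 402 and 187 (-1.34 ± 0.25, adjusted p = 0.0017; adjusted p = 0.037 with group weights). In both genes every treatment mouse stayed below model mouse 1, the lowest of its group. Ifi204 (-1.36 ± 0.28), Ifi203 (-1.32 ± 0.27) and Ifi209 (-1.88 ± 0.48) fell too. Of the 12 genes 6 fell without treatment mice 1 and 2, and 6 without mouse 3 of both groups. Ifi209 lost the call without treatment mouse 1 (adjusted p = 0.051).

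All 7 tested genes of the Trim5, Trim12, Trim30 and Trim34 cluster, relatives of a retroviral restriction factor, fell, where 9.32% of all genes did. Of these, 5 did not overlap, where 4.79% of all genes were lower without overlap. Of the 7, 4 fell without mouse 3 of both groups. Trim12c was at 1.62, 2.74, 3.12 and 3.3 against 6.42, 6.48, 13.3 and 9.58 FPKM (-1.40 ± 0.18, adjusted p = 0.00045), and it was called in every fit without 1 library and with group weights (adjusted p = 0.018). Casp4, the sensor of cytosolic lipopolysaccharide, was at 5.37, 11.2, 5.12 and 11.8 against 15.8, 14.7, 60.3 and 22.8 (-1.49 ± 0.34, adjusted p = 0.0066). Casp1 (-0.86 ± 0.16) and Casp12 (-0.68 ± 0.13) fell too. Of 7 Schlafen genes 5 fell, among them Slfn5 (-1.20 ± 0.23) and Slfn4 (-2.55 ± 0.82), of 10 guanylate-binding proteins 2, Gbp7 and Gbp9 (-0.84 ± 0.23), and of 10 Toll-like receptors 4, Tlr3 (-0.64 ± 0.11), Tlr4 (-0.93 ± 0.24), Tlr7 (-0.73 ± 0.21) and Tlr8 (-0.87 ± 0.29). The shares that fell in the Schlafen, guanylate-binding and Toll-like lists were 71.4%, 20% and 40%, beside 9.32% of all genes. The Slfn4 difference was -3.24 without model mouse 2 and -1.58 without model mouse 3. Members of the p200, Ifit, Schlafen and Trim clusters are near copies, and reads may be split between them. Slfn4 lost the call without treatment mouse 1 or 3 or model mouse 3 or 4 (adjusted p from 0.056 to 0.13). Gbp9 was not called without treatment mouse 1 or model mouse 3 or 4 (adjusted p from 0.054 to 0.075). Tlr7 and Tlr8 missed the threshold without treatment mouse 1 or 3 or model mouse 2 or 3 (adjusted p from 0.051 to 0.14).

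**Figure D4:**
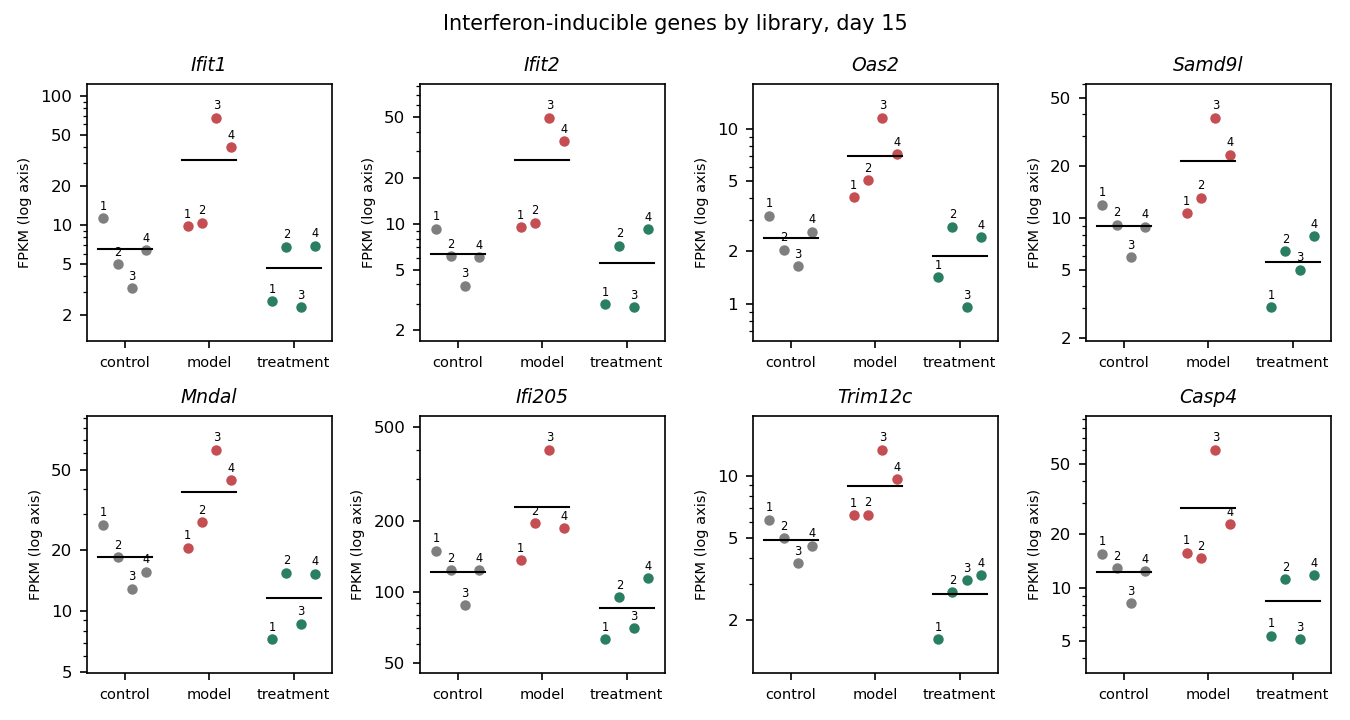
FPKM (log axes) of 8 interferon-inducible genes in control, model and treatment libraries of day 15; points are single mice labelled with their number and black lines are group means. All 8 are among the 15 largest falls, which were chosen among genes free of overlap, so every treatment value lies below every model value. Model mouse 3 is the highest of its group in each panel, and treatment mice 2 and 4 exceed treatment mouse 1 throughout.

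Of 16 macrophage genes 4 (25%) fell, beside 9.32% of all genes, and none rose (median -0.52): the mannose receptor Mrc1, the hyaluronan receptor Lyve1, the hemoglobin scavenger receptor Cd163 and the scavenger receptor Msr1. Mrc1 was at 55.1, 76.6, 32.6 and 73.7 FPKM in treatment and 88.5, 119, 111 and 90.5 in model mice (-0.83 ± 0.19, adjusted p = 0.0069), the treatment group being lowest in mouse 3. The log2 differences were -0.95 ± 0.25 for Cd163, -0.97 ± 0.25 for Lyve1 and -1.25 ± 0.37 for Msr1. The summed level of all 16 genes was 882 to 3330 FPKM in treatment, 2318 to 4786 in model and 1193 to 2323 in control mice, and none of the 16 was under 1 FPKM in all 8 libraries. The interferon list summed to 87.7 to 346 FPKM in treatment, 209.5 to 1089 in model and 109 to 313 in control mice. The part of macrophage or other immune cell numbers in the falls of interferon genes was not tested. Cd163 lost the call without model mouse 2 (adjusted p = 0.055). Msr1 was not called without treatment mouse 1 or 3 or model mouse 3 (adjusted p from 0.061 to 0.093).

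Of 28 chemokine genes and receptors 3 (10.7%) fell, a share near the 9.32% of all genes. Ccl8, a monocyte attractant of dermal macrophages, was at 568, 740.4, 303 and 801 against 922, 1295, 1216 and 1109.8 FPKM (-0.99 ± 0.23, adjusted p = 0.0065), and its groups did not overlap. Ccr2, the receptor of inflammatory monocytes (-1.28 ± 0.36), and Ccl9 (-0.93 ± 0.32) fell with overlap. One neutrophil gene of 8 (12.5%, near that share too), the decoy receptor Il1r2, fell (-0.86 ± 0.23), and the summed neutrophil level was 62.1 to 484 FPKM in treatment and 151 to 3128 in model mice. Of 11 cytokine genes none was called by limma (none at an unadjusted p under 0.05 either) or voom. Il1b was at 59.9, 189, 1.85 and 167 FPKM in treatment and 39.7, 11.0, 515 and 34.8 in model mice. Model mouse 3 was the highest of the 8 and treatment mice 2 and 4 came next. Il6 was at 7.21, 37.8, 0.568 and 32.2 against 4.69, 1.89, 38.8 and 3.2 and Tnf at 2.74, 2.49, 0.996 and 2.36 against 1.2, 1.09, 11.2 and 3.71, with log2 differences of 0.65 ± 0.87 (adjusted p = 0.63) and -0.40 ± 0.43 (adjusted p = 0.53). The Il6 difference was 0.06 without treatment mouse 2, 1.6 without treatment mouse 3 and 1.47 without model mouse 3. Without mouse 3 of both groups 2 of the 11 cytokine genes rose, Il6 and Csf3, a granulocyte growth factor (1.72, adjusted p = 0.00078). Il6 belongs to the fixed panel, whereas Csf3 and this omission were chosen after values were seen. Ccr2 lost the call without treatment mouse 1 or model mouse 3 (adjusted p from 0.063 to 0.077). Ccl9 was not called without treatment mouse 1, 3 or 4 or model mouse 2, 3 or 4 (adjusted p from 0.055 to 0.17). Il1r2 missed the threshold without model mouse 3 (adjusted p = 0.059). Il6 was called without mouse 3 of both groups (difference 2.42, adjusted p = 0.016). Csf3 was called with weights per library or without mouse 3 of both groups (difference from 1.72 to 1.76, adjusted p from 0.00078 to 0.0046).

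Of 16 complement genes 2 (12.5%) fell, among them C7, a share near the 9.32% of all genes. C7, a component of the membrane attack complex, was at 116, 104, 23.6 and 98.9 against 118, 314, 120.1 and 160 (-1.15 ± 0.36, adjusted p = 0.03), with mouse 3 far below the other treatment mice. C7 lost the call without treatment mouse 3 or model mouse 2 or 4 (adjusted p from 0.052 to 0.11).

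Grem1, a secreted antagonist of BMP ligands made by dermal fibroblasts, stood second among the 15 largest falls. It was at 2.31, 2.21, 1.19 and 4.65 FPKM in treatment mice 1 to 4, 12.3, 18.3, 9.33 and 9.85 in model mice and 4.12, 2.94, 2.48 and 3.79 in control mice. Treatment values overlapped the control values and lay far below the model values, the nearest pair being treatment mouse 4 and model mouse 3. The log2 difference was -1.94 ± 0.25 (adjusted p = 0.00045), called in every fit without 1 library and with group weights (adjusted p = 0.018).

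Small proteoglycans of the dermis fell too. Of 30 dermal matrix genes 6 (20%, beside 9.32% of all genes) fell and none rose (median -0.32), among them 4 small leucine-rich proteoglycans. Asporin, Aspn, was at 44.5, 30.8, 48.2 and 53.0 FPKM in treatment and 103, 238, 79.0 and 158 in model mice (-1.59 ± 0.25, adjusted p = 0.00089; adjusted p = 0.026 with group weights). Osteoglycin, Ogn, was at 34.6, 30.2, 54.5 and 57.0 against 75.2, 112, 83.1 and 103 (-1.10 ± 0.17, adjusted p = 0.00084; adjusted p = 0.026 with group weights). Both genes were also lower in all 4 treatment mice than in all 4 control mice, which were at 87.8, 78.3, 77.4 and 66.0 and 90.0, 75.9, 68.6 and 67.7. Decorin, Dcn (-0.72 ± 0.17, adjusted p = 0.0087), and lumican, Lum (-0.64 ± 0.22), which shape collagen fibrils, fell less. Lum lost the call without treatment mouse 1, 2 or 3 or model mouse 1, 2 or 4 (adjusted p from 0.063 to 0.16).

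The collagen-crosslinking oxidase Lox was at 58.2, 119.9, 17.6 and 95.5 FPKM in treatment and 134, 133, 124 and 115 in model mice (-1.09 ± 0.36, adjusted p = 0.041), and the protease Mmp14 fell by 0.65 ± 0.20. None of 17 collagen chains was called by limma or voom (4 were lower at an unadjusted p under 0.05). Col1a1 was at 2093, 2282, 585 and 1488 against 1977, 3608, 1632 and 2157 (-0.65 ± 0.31, adjusted p = 0.14) and Col3a1 at 2319.8, 3133, 693 and 1993 against 2668, 3904, 2463 and 2557 (-0.68 ± 0.30, adjusted p = 0.11), and in both mouse 3 alone was far below the other treatment mice. The summed dermal matrix level of treatment mouse 3 was 2450 FPKM, against 4801 to 5863 in the other treatment mice and 5422 to 9369 in model mice. Without treatment mice 1 and 2 together, 11 of the 30 dermal matrix genes and 6 of the 17 collagen chains fell. In that fit 558 of 13039 genes fell. Lox lost the call without treatment mouse 1 or 3 or model mouse 1, 2, 3 or 4 (adjusted p from 0.059 to 0.1). Mmp14 was not called without treatment mouse 1 or 3 or model mouse 2 (adjusted p from 0.052 to 0.086). Col1a1 was called without treatment mouse 2 or without treatment mice 1 and 2 (difference from -1.26 to -0.87, adjusted p from 0.025 to 0.04999). Col3a1 was called with quantile normalization, without treatment mouse 2 or without treatment mice 1 and 2 (difference from -1.28 to -0.81, adjusted p from 0.021 to 0.038).

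**Figure D5:**
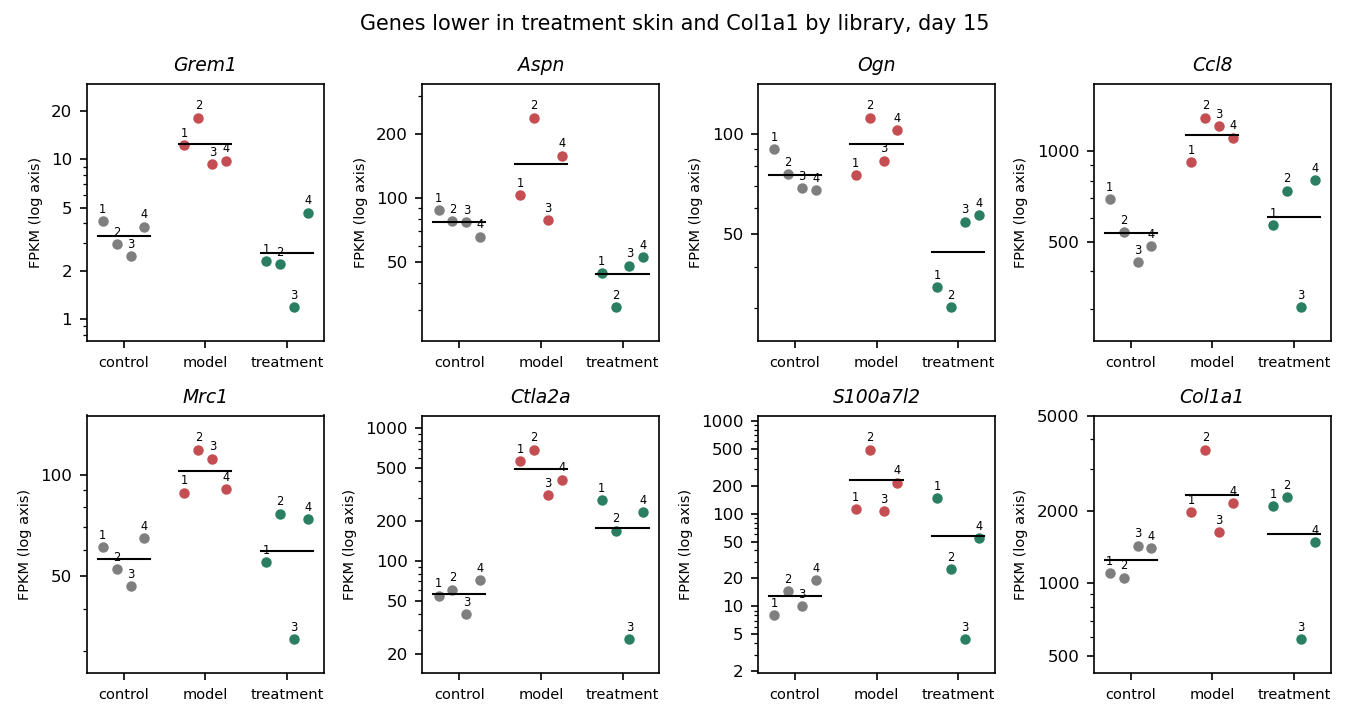
FPKM (log axes) of 7 genes called lower in treatment skin and of Col1a1, which was not called, in control, model and treatment libraries of day 15; points are single mice labelled with their number and black lines are group means. Grem1, Aspn, Ogn, Ccl8, Mrc1 and Ctla2a do not overlap between treatment and model mice, whereas S100a7l2 and Col1a1 do, and mouse 3 is the lowest treatment mouse for Grem1, Ccl8, Mrc1, Ctla2a, S100a7l2 and Col1a1.

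Of 14 target genes of steroid receptors 4 (28.6%) fell and 1 (7.14%) rose, beside 9.32% and 10.3% of all genes. Tsc22d3, which encodes the glucocorticoid-induced leucine zipper, was at 24.1, 33.0, 41.1 and 35.2 FPKM in treatment and 53.5, 84.0, 45.7 and 63.6 in model mice (-0.86 ± 0.17, adjusted p = 0.0029; adjusted p = 0.046 with group weights). Klf9 was at 13.7, 17.6, 22.9 and 19.7 against 27.6, 35.9, 23.9 and 27.6 (-0.62 ± 0.13, adjusted p = 0.0038), its nearest values being mouse 3 of each group. Fkbp5, a co-chaperone of steroid receptors and a classic androgen and glucocorticoid target, was at 41.0, 33.0, 19.6 and 37.5 against 48.5, 81.8, 41.6 and 49.6 (-0.74 ± 0.24, adjusted p = 0.038). The other fallen gene was Ctla2a, the largest fall of the list (-1.85), which is described below. Cdkn1a, the cell cycle inhibitor p21, rose (0.44 ± 0.11). Fkbp5 lost the call without treatment mouse 3 or model mouse 2 or 4 (adjusted p from 0.054 to 0.13).

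Ctla2a, a cathepsin inhibitor gene, was at 285, 168, 25.6 and 232 FPKM in treatment and 566, 689, 313 and 409 in model mice (-1.85 ± 0.50, adjusted p = 0.015), and at 54.5, 60.7, 39.4 and 71.8 in control mice. The groups did not overlap, but treatment mouse 3 was below every control mouse and mice 1, 2 and 4 were above them all. Without treatment mouse 3 the Ctla2a difference was -1.08. S100a7l2, an antimicrobial S100 protein, was at 146, 25.1, 4.41 and 54.4 against 112, 489, 107 and 216 (-2.54 ± 0.70, adjusted p = 0.016), with treatment mouse 1 inside the model range. Its difference was -3.26 without treatment mouse 1 and -1.67 without treatment mouse 3. Defb8, a beta-defensin, was at 653, 199, 54.9 and 378 against 404, 1269, 377 and 622 (-1.36 ± 0.56, adjusted p = 0.089) and was not called (-0.68 without treatment mouse 3), nor was Wfdc12, a protease inhibitor of the antimicrobial list (-1.11 ± 0.40, adjusted p = 0.056). Serpinb6e was at 0.0668, 0.731, 0.821 and 2.22 against 0.217, 0.307, 0.124 and 0.0482 FPKM, where control mice had 7.34, 4.23, 3.63 and 4.67, and was not called either (0.63 ± 0.25, adjusted p = 0.077). Hamp2, a hepcidin gene, was listed at 0 in all 4 model mice and in treatment mice 1 and 2, and had 0.0618 and 0.0569 FPKM in the other 2. Of 14 tested Serpina3 and Serpinb6 genes Serpina3b rose (1.0 ± 0.27) and Serpina3k (-1.76 ± 0.53), Serpina3m (-1.03 ± 0.29), Serpina3i (-0.90 ± 0.23) and Serpinb6a (-0.43 ± 0.15) fell. Of this list 7.14% rose and 28.6% fell, beside 10.3% and 9.32% of all genes. The Serpina3k difference was -2.43 without treatment mouse 1. S100a7l2 and Serpina3m lost the call without model mouse 2 (adjusted p from 0.056 to 0.06). Serpina3b was not called without model mouse 3 (adjusted p = 0.053). Serpina3k missed the threshold without treatment mouse 3 or 4 or model mouse 2 (adjusted p from 0.059 to 0.1). Serpinb6a lost the call without treatment mouse 3 or 4 or model mouse 2, 3 or 4 (adjusted p from 0.059 to 0.17). Defb8 was called without treatment mouse 1 or without treatment mice 1 and 2 (difference from -2.02 to -1.86, adjusted p from 0.039 to 0.048). Wfdc12 was called with only genes at a mean of at least 5 FPKM, with a common total per library, without treatment mouse 2 or without treatment mouse 4 (difference from -1.30 to -1.11, adjusted p from 0.036 to 0.049). Serpinb6e was called with quantile normalization, with weights per library, without treatment mouse 1 or without treatment mice 1 and 2 (difference from 0.72 to 1.05, adjusted p from 0.014 to 0.046).

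Of 12 tested genes of a steroid conversion list 4 rose and 1 fell, beside 10.3% and 9.32% of all genes. Sult2b1, the cholesterol sulfotransferase of the epidermis, was at 28.0, 23.1, 25.1 and 26.6 FPKM in treatment and 20.2, 14.0, 15.2 and 18.9 in model mice (0.57 ± 0.09, adjusted p = 0.00096; adjusted p = 0.029 with group weights). The 5-alpha reductase Srd5a1, which makes DHT, was at 10.9, 7.51, 11.7 and 9.92 against 9.08, 7.07, 6.53 and 8.78 (0.31 ± 0.10, adjusted p = 0.039), a rise with overlap. Hsd17b10 (0.29 ± 0.10) and Akr1c18 (0.57 ± 0.20) rose, and Hsd11b1, which reactivates glucocorticoids, fell (-0.69 ± 0.21, adjusted p = 0.026). Srd5a1 lost the call without treatment mouse 1, 3 or 4 or model mouse 2 or 3 (adjusted p from 0.061 to 0.13). Hsd17b10 was not called without treatment mouse 1 or 2 or model mouse 3 or 4 (adjusted p from 0.052 to 0.14). Akr1c18 missed the threshold without treatment mouse 1, 3 or 4 or model mouse 1 or 2 (adjusted p from 0.051 to 0.17). Hsd11b1 lost the call without treatment mouse 3 or model mouse 2 or 3 (adjusted p from 0.061 to 0.074).

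Epidermal differentiation genes rose in 5 of 27 (18.5%, beside 10.3% of all genes), and none fell, whereas without mouse 3 of both groups 2 rose and 2 fell. Asprv1, the protease that processes profilaggrin, was at 326, 234, 272 and 253 FPKM in treatment and 199, 158, 156 and 172 in model mice (0.65 ± 0.13, adjusted p = 0.0024), without overlap. Besides Tgm3, the transglutaminase Tgm1 (0.48 ± 0.12), cornifelin, Cnfn (0.57 ± 0.15), and Krt80 (0.39 ± 0.13) rose. Among 23 late cornified envelope and small proline-rich genes 3 rose, a share (13.0%) near that of all genes: Sprr2h (1.0 ± 0.23), Sprr1b (0.82 ± 0.28) and Sprr1a (0.71 ± 0.16). Sprr2h was at 27.6, 17.1, 22.1 and 23.9 against 8.77, 9.02, 16.7 and 9.74 FPKM, with model mouse 3 nearest to the treatment group. None of 11 basal epidermis genes was called by limma or voom (2 were higher at an unadjusted p under 0.05) (median 0.02), Krt5 having a difference of 0.35 ± 0.13 (adjusted p = 0.056). Cnfn lost the call without model mouse 2 (adjusted p = 0.057). Krt80 was not called without treatment mouse 1 or 4 or model mouse 2 or 3 (adjusted p from 0.078 to 0.14). Sprr1b missed the threshold without treatment mouse 1 or 3 or model mouse 2, 3 or 4 (adjusted p from 0.07 to 0.13). Krt5 was called with only genes at a mean of at least 5 FPKM, without model mouse 1 or without treatment mouse 3 (difference from 0.35 to 0.47, adjusted p from 0.0095 to 0.049).

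Enzymes of cholesterol synthesis rose in 6 of 23 (26.1%, beside 10.3% of all genes), and none fell, with 7 higher without treatment mice 1 and 2 and 3 without mouse 3 of both groups. Fdps, farnesyl diphosphate synthase, was at 87.5, 80.7, 92.2 and 82.1 FPKM in treatment and 70.1, 60.7, 50.9 and 64.3 in model mice (0.48 ± 0.08, adjusted p = 0.0011; adjusted p = 0.029 with group weights). Mvd (0.45 ± 0.09, adjusted p = 0.0038), Mvk (0.38 ± 0.09), Nsdhl (0.32 ± 0.08) and the transcription factor Srebf2 (0.30 ± 0.08) rose as well, and of 17 sebaceous gland genes only the desaturase Fads2 (0.70 ± 0.19). The pentose phosphate enzyme G6pdx was at 130.4, 118, 134 and 108 against 90.5, 72.1, 78.9 and 89.3 (0.56 ± 0.09, adjusted p = 0.001; adjusted p = 0.03 with group weights). Srebf2 and Fads2 lost the call without model mouse 2 (adjusted p = 0.051).

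Of 15 retinoid genes 4 rose and 2 fell, beside 10.3% and 9.32% of all genes. Among the risen were Stra6 (0.99 ± 0.25), Aldh1a3 (0.39 ± 0.13) and the receptor Rarg (0.35 ± 0.10), whereas Lrat (-0.68 ± 0.21) and Aldh1a2 (-0.62 ± 0.21) fell. Among 15 lipoxygenase and prostaglandin genes Alox12 (0.83 ± 0.23), Alox8 (0.78 ± 0.22) and Ptgds (0.76 ± 0.23), a prostaglandin D synthase, rose (20%, beside 10.3% of all genes). Hpgds, the other prostaglandin D synthase, was at 2.17, 2.94, 2.53 and 3.86 against 5.92, 6.01, 4.79 and 5.54 and fell (-0.78 ± 0.13, adjusted p = 0.0011; adjusted p = 0.041 with group weights). Aldh1a3 lost the call without treatment mouse 1, 3 or 4 or model mouse 2 or 3 (adjusted p from 0.067 to 0.14). Rarg was not called without treatment mouse 1 or model mouse 2 or 3 (adjusted p from 0.057 to 0.081). Lrat missed the threshold without treatment mouse 1, 2 or 3 or model mouse 1 or 3 (adjusted p from 0.053 to 0.11). Aldh1a2 lost the call without treatment mouse 1 or 2 or model mouse 2 or 3 (adjusted p from 0.08 to 0.16). Alox12 was not called without treatment mouse 1 or model mouse 2 or 4 (adjusted p from 0.051 to 0.08). Alox8 missed the threshold without treatment mouse 1 or 3 or model mouse 2 or 3 (adjusted p from 0.051 to 0.081). Ptgds lost the call without treatment mouse 1 or model mouse 2 (adjusted p from 0.075 to 0.094).

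Genes of translation rose by small steps. Of 80 ribosomal protein genes 29 (36.2%) rose and none fell (median 0.21), and 40 were higher without overlap where 7.98% of all genes were. Rpl27 was at 665, 623, 573 and 585 FPKM in treatment and 508, 392, 399 and 428 in model mice (0.51 ± 0.09, adjusted p = 0.0015), and Rpl7a (0.31 ± 0.06), Rpl8 (0.33 ± 0.07) and Rpl3 (0.34 ± 0.07) rose less. Of 20 cytoplasmic aminoacyl-tRNA synthetases, a family picked after the values were seen, 14 (70%, beside 10.3% of all genes) rose. Among them Qars rose by 0.48 ± 0.08 (adjusted p = 0.00084). Of 66 nuclear genes of oxidative phosphorylation 14 (21.2%, beside 10.3% of all genes) rose and none fell, Ndufa9 of complex I by 0.35 ± 0.06 (adjusted p = 0.0016) and Uqcrc1 of complex III by 0.28 ± 0.06. Without treatment mice 1 and 2 together 5 of the 80 ribosomal protein genes rose, a share near that of all genes (771 of 13039). In that fit 7 of the 20 synthetases and 7 of the 66 oxidative phosphorylation genes rose. Without mouse 3 of both groups 19, 7 and 6 genes of these lists rose, where 831 of 13039 genes did. With quantile normalization Rpl7a and Rpl3 were not called (adjusted p = 0.1 and 0.073).

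Of 30 cell cycle genes 8 (26.7%, beside 10.3% of all genes) rose and none fell, against 2 higher without treatment mice 1 and 2, and 3 higher and 2 lower without mouse 3 of both groups. Plk1, a mitotic kinase, was at 11.8, 11.1, 10.2 and 9.88 FPKM in treatment and 8.07, 5.22, 5.94 and 8.72 in model mice (0.58 ± 0.12, adjusted p = 0.0038), and Cdc20, which activates the anaphase-promoting complex, at 22.4, 20.5, 21.2 and 18.5 against 16.6, 11.0, 12.3 and 17.3 (0.52 ± 0.11, adjusted p = 0.0043). Aurka (0.52 ± 0.13) and Tpx2 (0.36 ± 0.11) rose with overlap. Mki67, the proliferation antigen, was at 20.9, 24.6, 38.6 and 24.6 against 34.2, 19.1, 22.5 and 33.0 and was not called (0.00 ± 0.16, adjusted p = 0.99). Tpx2 lost the call without treatment mouse 1 or 3 or model mouse 2 or 3 (adjusted p from 0.057 to 0.11).

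Immediate early genes, which respond quickly to stimulation or handling, rose in 6 of 22 (27.3%, beside 10.3% of all genes). Egr1 was at 75.2, 138, 31.0 and 121 FPKM in treatment and 33.2, 17.6, 39.9 and 23.0 in model mice (1.51 ± 0.34, adjusted p = 0.0054). Mice 2 and 4 of the treatment group were the highest and mouse 3 lay inside the model range. Ier2 (0.76 ± 0.17), Junb (0.68 ± 0.21), Jun (0.58 ± 0.15), Egr3 (0.41 ± 0.11) and Jund (0.36 ± 0.10) rose too. Without treatment mice 1 and 2 together 1 of the 22 rose, where 771 of 13039 genes did. Without mouse 3 of both groups 13 of the 22 rose, where 831 of 13039 genes did. Mice 2 and 4 also had the highest Il1b and Il6 values of the treatment group. Junb lost the call without treatment mouse 1, 2 or 4 or model mouse 2 or 4 (adjusted p from 0.063 to 0.12). Egr3 was not called without treatment mouse 1 or model mouse 2 (adjusted p from 0.052 to 0.068).

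Of 17 genes of the endoplasmic reticulum stress list, asparagine synthetase, Asns (0.49 ± 0.09, adjusted p = 0.0022), and Chac1 (0.73 ± 0.21) rose. Ddit3, which encodes CHOP (-0.52 ± 0.11, adjusted p = 0.0033), and the chaperones Dnajb9 (-0.41 ± 0.08) and Hsp90b1 (-0.27 ± 0.09) fell. Of this list 11.8% rose, near the 10.3% of all genes, and 17.6% fell, beside 9.32% of all genes. Ddit3 was at 2.64, 3.38, 3.09 and 2.87 against 3.94, 5.29, 5.22 and 4.59 FPKM without overlap. Of 12 heat shock genes Hspb1 (0.50 ± 0.16) and Dnajb1 (0.27 ± 0.06) rose (16.7%, beside 10.3% of all genes). Of 16 clock genes Clock (-0.43 ± 0.09), Nr1d2 (-0.64 ± 0.14) and Per3 (-0.52 ± 0.16) fell (18.8%, beside 9.32% of all genes). Chac1 lost the call without treatment mouse 1 or model mouse 2 (adjusted p from 0.079 to 0.085). Hsp90b1 was not called without treatment mouse 1 or 2 or model mouse 1 or 3 (adjusted p from 0.094 to 0.13). Hspb1 missed the threshold without treatment mouse 1 or 3 or model mouse 2, 3 or 4 (adjusted p from 0.053 to 0.12). Per3 lost the call without treatment mouse 1 or 2 or model mouse 1, 2 or 4 (adjusted p from 0.058 to 0.1).

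The difference between extract and solvent at day 15 was also tested against that at day 10, when 25 genes (0.192%) were called between the same treatments. The difference changed in 13 genes (0.0997%), 7 of which were under 1 FPKM in all 8 libraries of day 15 (highest value 0.13), and 4 of these are on a list of kidney tubule genes. The other 6 were Grem1, Rin2, Fdps, Dnajb9, Mcfd2 and Sectm1a. At day 10 Grem1 was at 4.44, 8.89, 5.3 and 7.3 FPKM in treatment and 5.72, 6.06, 7.18 and 7.84 in model mice, which overlapped, and the change to day 15 was -1.87 ± 0.35 (adjusted p = 0.036). Rin2, a guanine nucleotide exchange factor for Rab5, was at 27.0, 25.7, 29.7 and 34.3 against 41.2, 45.3, 46.1 and 46.4 at day 15 (-0.61 ± 0.07, adjusted p = 0.00031; adjusted p = 0.011 with group weights) and at 33.0, 33.4, 29.5 and 33.1 against 32.6, 31.9, 31.1 and 34.6 at day 10, a change of -0.59 ± 0.10 (adjusted p = 0.018). Fdps was at 74.8, 71.8, 74.3 and 70.8 against 82.7, 75.2, 75.6 and 82.0 at day 10, a change of 0.59 ± 0.11 (adjusted p = 0.039). Sectm1a (-1.54 ± 0.29, adjusted p = 0.036), Dnajb9 (-0.58 ± 0.11, adjusted p = 0.039) and Mcfd2 (-0.54 ± 0.10, adjusted p = 0.019), a cargo receptor partner of the secretory pathway, changed towards lower values in treatment skin. Without model mouse 1 the change passed in 94 genes, without treatment mouse 3 in 35 and without treatment mouse 4 in 25. Of the 25 genes called at day 10 and the 2563 called at day 15, 7 were called at both days in the same direction.

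Numbered zinc finger genes (Zfp), a family of DNA-binding proteins, were picked after the values were seen. Of 292 tested 78 fell and 7 rose, beside 9.32% lower and 10.3% higher of all genes, with Zfp991 at 0.284, 0.689, 1.12 and 1.28 against 2.99, 2.07, 3.55 and 3.05 FPKM (-1.11 ± 0.18, adjusted p = 0.00084; adjusted p = 0.029 with group weights) and Zfp984 at 1.43, 1.59, 4.42 and 2.35 against 4.98, 6, 6.81 and 6.75 (-1.12 ± 0.21, adjusted p = 0.0018). The list median from the model mean was -0.23, -0.34, 0.10 and -0.18 in treatment mice 1 to 4, lowest in mice 1 and 2 and above the model mean in mouse 3. Mice 1 and 2 also had the lowest sum of the Y-linked genes given above, of which Ddx3y (-0.66 ± 0.20, adjusted p = 0.022) and Kdm5d (-0.34 ± 0.12, adjusted p = 0.043) fell and Uty (-0.33 ± 0.13, adjusted p = 0.065) and Eif2s3y (-0.22 ± 0.16, adjusted p = 0.35) were not called. Without treatment mice 1 and 2 together 17 of the 292 fell, where 558 of 13039 genes did, and neither Ddx3y nor Kdm5d was called. Without mouse 3 of both groups 134 of the 292 and 3 of the 4 Y-linked genes (Ddx3y, Kdm5d and Uty) fell. In that fit 1800 of 13039 genes fell. Whether the Zfp and Y-linked patterns have one source was not tested. Of the 4 X-linked homologs 1 was called higher (25%, beside 10.3% of all genes). Without treatment mice 1 and 2 none of these homologs was called, and without mouse 3 of both groups 1 fell. Ddx3y lost the call without treatment mouse 1 or 2 or model mouse 3 (adjusted p from 0.057 to 0.1). Kdm5d was not called without treatment mouse 1 or 2 or model mouse 1, 2, 3 or 4 (adjusted p from 0.053 to 0.14). Uty was called with median-of-ratios scaling, with a common total per library, with weights per library, without treatment mouse 3 or without mouse 3 of both groups (difference from -0.53 to -0.35, adjusted p from 0.0013 to 0.048). Eif2s3y was called with weights per library or without treatment mouse 3 (difference from -0.42 to -0.39, adjusted p from 0.032 to 0.034).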

How the data were processed

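Poly(A) RNA of mouse skin was measured as FPKM per gene, which the authors deposited as 1 table of 24 libraries. Per the submitters' processing notes, fastp, HISAT2, HTSeq and GRCm39 were used. Versions, strand setting and the rule for shared reads are not given in the sources used here. Genes with at least 1 FPKM in at least 4 libraries were tested with limma 3.58.1 in R 4.3.3 on log2(FPKM + 1), all 6 groups sharing the spread, and p-values were adjusted over all genes. A moderated test on these values has no count model; reads recovered from the FPKM steps (99.99% of genes within a tolerance of 0.01) were given to voom as an alternative. The procedure was also run on simulated data in which all groups of a gene had the same spread. Such data cannot show how the wider spread of treatment and model skin of day 15 affects the calls. Genes named are the 15 largest rises and falls, up to 4 members of each list by p, and a fixed panel. Further list members were named after their values were seen. The comparison, gene lists and panel were chosen with earlier results of these data known. The families picked later, 2 omissions of several libraries and voom on 8 libraries were chosen after seeing the data. Promoter sequences are from RefSeq (GRCm38.p6), not the build of the table. Each library is 1 mouse of a randomised set. A few genes that the naming rule picks are not reported here.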

Additional observations from a re-analysis of the deposited data

Results flagged for a closer look

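In 208 named genes and both groups of 4 mice, 7 values stood apart from the other 3 of their group by Dixon's criterion at its 95% critical value. Chance alone gives about 1 in 20 groups, which is more than were found here. In treatment mouse 3, Tyrp1 was at 63.24 FPKM where the next value was 52.31, Trpm1 at 6.2 (next 4.231), C7 at 23.55 (next 98.91) and Serpina3m at 2.884 (next 9.559). In treatment mouse 1, Akr1c18 was at 8.021 FPKM (next 5.223). In model mouse 3, Sprr2h was at 16.72 FPKM (next 9.741), and in model mouse 4 Uty was at 4.134 (next 3.333).

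The difference between treatment and model skin changed from day 10 to day 15, by a test of the change itself, in Grem1 (-1.87 on the log2 scale), Sectm1a (-1.54), Rin2 (-0.59), Dnajb9 (-0.58), Mcfd2 (-0.54) and Fdps (0.59).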

How the results depend on the processing

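The count of higher genes (1348) became 677 with a common total per library, 99 with weights per group, 0 with only the 8 libraries (limma, and voom on the same 8; 1382 higher and 1121 lower genes at an unadjusted p under 0.05 by limma), 771 without treatment mice 1 and 2 and 831 without mouse 3 of both groups, and 686 to 1693 when 1 library was left out. The count of lower genes (1215) became 109 with weights per group, 0 with only the 8 libraries, 1951 with weights per library and 558 without treatment mice 1 and 2, and 535 to 1761 when 1 library was left out. The 13 genes whose difference changed between days became 56 with no filter, 3 at a mean of at least 5 FPKM, 8 with weights per group, 596 with weights per library, 7 without treatment mice 1 and 2 and 29 without mouse 3 of both groups, and 9 to 94 when 1 library was left out. The cause of these shifts was not tested. The fits of 8 libraries give no value for that change.

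Of 184 named called genes, none lost its call with a pseudocount of 0.1, 8 of 183 did with voom, 4 with median-of-ratios scaling, 20 with quantile normalization, 25 with a common total and 33 with no filter, 10 to 75 when 1 library was left out, 160 with weights per group and 184 with only the 8 libraries. Mki67, not called, was -0.38 (adjusted p = 0.02, limma) with weights per library. Deviations of same-numbered mice correlated at 0.0472, -0.282, -0.515 and 0.00953, and those of differently numbered mice at -0.419 to 0.568. With so few libraries these values cannot tell whether the numbers pair the mice. With the replicate block 1109 genes were higher, 967 lower and 10 changed between days. No library had Y-linked transcripts near 0, so that omission was not run.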

Other observations

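Each of the following lists held 1 called gene, beside 9.32% lower and 10.3% higher of all genes. Mrgprb2, a receptor of connective tissue mast cells, fell (-0.49 ± 0.17, log2 difference ± SE), 1 of 10 mast cell genes (10%). Flt1, a VEGF receptor, fell (-0.27 ± 0.09), 1 of 13 endothelial genes (7.69%). Bpgm, the bisphosphoglycerate mutase of red cells, rose (0.48 ± 0.11), 1 of 9 erythrocyte genes (11.1%). Bnip3, a mitophagy receptor, fell (-0.61 ± 0.21), 1 of 15 genes of hypoxia and glycolysis (6.67%). Ahr, the aryl hydrocarbon receptor, fell (-0.52 ± 0.11), 1 of 6 genes of its list (16.7%). Mrgprb2 lost the limma call without treatment mouse 1 or 2 or model mouse 1, 2, 3 or 4 (adjusted p from 0.0501 to 0.18). Flt1 was not called without treatment mouse 1 or 4 or model mouse 2 or 3 (adjusted p from 0.079 to 0.13). Bnip3 missed the threshold without treatment mouse 1, 3 or 4 or model mouse 2 or 3 (adjusted p from 0.051 to 0.15).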
